A study of Mus musculus with 4 samples.

Results

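RIF1 occupancy in B cells was examined at 10 genes linked to the sensing of lipopolysaccharide (LPS) through Toll-like receptor 4 (TLR4). The annotation held 22380 protein-coding genes. The genes were chosen by name, with earlier results of these data known. They were the receptor and its cofactors (Tlr4, Ly96, Cd14) and the related receptor pair of B cells (Cd180, Ly86). The others were the adaptors (Tirap, Myd88) and the enzymes below them (Irak4, Traf6, Map3k7). For each gene, the gene itself, 1 kb on each side of each transcript 5′ end, and 100 kb on each side of the gene were compared with the listed RIF1 intervals.

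The cells were splenic B cells from mice, isolated with anti-CD43 MicroBeads and cultured for 72 h with 5 µg/ml LPS and 5 ng/ml interleukin 4 (IL-4). Rif1FH cells (2 samples) were homozygous for an allele that puts a FLAG-HA tag at the N terminus of endogenous RIF1, a factor that sets the time at which parts of the genome replicate. Rif1WT cells (2 samples) were from C57BL/6 mice with untagged RIF1, and the study states that its Rif1FH mice were also kept on a C57BL/6 background. Both groups received the same LPS and IL-4, so that no group without LPS is part of the data. Chromatin was precipitated with an antibody against HA and sequenced, a method known as ChIP-seq. The antibody label names the CD43 beads instead, and the extraction protocol was followed here.

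The list analysed gave the positions of intervals called in both Rif1FH replicates, with no height. Narrow intervals (16043, up to 14827 bp) are called RIF1 peaks, and wide ones (289, from 90000 bp) are called wide RIF1 domains and were taken to be the RIF1-associated domains of the study. None of the peaks overlapped a wide domain (0 of 16043), since peaks inside such domains had been left out, so a gene within a domain has no peak by construction. Read depth is unknown, the spread between replicates cannot be computed, and Rif1FH cannot be compared with Rif1WT from this list. No expression was measured, so the B cell label could not be checked against marker levels. All shares are therefore descriptions with no test, and a gene without an interval is only one at which none was listed.

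LPS is a lipid of the outer wall of Gram-negative bacteria. CD14 hands LPS to the complex of TLR4 with MD-2, the protein of Ly96, and the paired receptors recruit the adaptors TIRAP and MyD88. MyD88 assembles with the kinase IRAK4, the ubiquitin ligase TRAF6 is engaged next, and TAK1, the kinase encoded by Map3k7, then switches on NF-kappaB and MAP kinases. B cells also carry RP105, the product of Cd180, with its partner MD-1, the product of Ly86. This pair resembles TLR4 with MD-2 but has no signalling domain of the Toll type, and it tunes the LPS response of B cells. LPS with IL-4 drives resting B cells into proliferation and class switching.

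The DNA before the genes' 5′ ends is shown because the genes differed widely in its CpG content. Sequences are from NCBIM37 (mm9), the 250 bases before the outermost annotated 5′ end, written 5′ to 3′ on the strand of the gene, with CpG dinucleotides in capitals. CpG-rich DNA marks the starts of many broadly used genes. The first set is from receptor genes that had a peak over the 5′ end and few CpGs, 2 at Tlr4, 0 at Ly96 and 3 at Cd180.
Tlr4, chr4:66488368-66488617, plus strand: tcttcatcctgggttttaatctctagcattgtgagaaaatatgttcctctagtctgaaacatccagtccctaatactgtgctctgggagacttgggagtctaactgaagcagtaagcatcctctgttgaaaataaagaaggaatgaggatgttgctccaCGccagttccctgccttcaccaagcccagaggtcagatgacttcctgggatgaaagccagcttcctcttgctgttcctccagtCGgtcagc
Ly96, chr1:16678287-16678536, plus strand: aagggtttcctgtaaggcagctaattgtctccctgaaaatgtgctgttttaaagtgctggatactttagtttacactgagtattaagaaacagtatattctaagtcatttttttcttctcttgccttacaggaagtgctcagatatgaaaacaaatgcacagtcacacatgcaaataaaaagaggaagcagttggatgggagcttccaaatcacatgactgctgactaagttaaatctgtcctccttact
Cd180, chr13:103483388-103483637, plus strand: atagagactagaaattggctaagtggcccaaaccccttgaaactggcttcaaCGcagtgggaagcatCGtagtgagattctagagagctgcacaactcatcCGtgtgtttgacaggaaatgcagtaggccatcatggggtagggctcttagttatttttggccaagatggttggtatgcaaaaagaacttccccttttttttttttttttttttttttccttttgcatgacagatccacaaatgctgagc

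The second set is from genes of the lower pathway that had a peak and many CpGs, 13 at Traf6 and 28 at Map3k7.
Traf6, chr2:101518336-101518585, plus strand: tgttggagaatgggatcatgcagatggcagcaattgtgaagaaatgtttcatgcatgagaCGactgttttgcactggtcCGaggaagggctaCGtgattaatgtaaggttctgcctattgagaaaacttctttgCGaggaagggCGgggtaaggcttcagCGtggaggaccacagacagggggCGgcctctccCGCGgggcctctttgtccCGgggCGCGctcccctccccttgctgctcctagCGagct
Map3k7, chr4:32050822-32051071, plus strand: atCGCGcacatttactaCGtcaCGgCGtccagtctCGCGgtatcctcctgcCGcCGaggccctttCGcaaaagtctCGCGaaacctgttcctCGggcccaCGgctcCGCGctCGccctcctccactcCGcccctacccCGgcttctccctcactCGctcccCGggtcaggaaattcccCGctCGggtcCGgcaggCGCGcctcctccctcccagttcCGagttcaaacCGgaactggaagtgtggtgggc

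The third set is from both genes without a peak at a 5′ end, Tirap with 21 CpGs and Ly86 with 11. Of those at Ly86, 6 stood in 1 unbroken run of CG repeats and 5 elsewhere.
Tirap, chr9:35007491-35007740, minus strand: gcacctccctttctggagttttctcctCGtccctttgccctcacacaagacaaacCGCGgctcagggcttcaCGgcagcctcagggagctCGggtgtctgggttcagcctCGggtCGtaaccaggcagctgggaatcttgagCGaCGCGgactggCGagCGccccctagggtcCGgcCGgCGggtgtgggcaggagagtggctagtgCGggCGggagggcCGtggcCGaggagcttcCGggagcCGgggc
Ly86, chr13:37436964-37437213, plus strand: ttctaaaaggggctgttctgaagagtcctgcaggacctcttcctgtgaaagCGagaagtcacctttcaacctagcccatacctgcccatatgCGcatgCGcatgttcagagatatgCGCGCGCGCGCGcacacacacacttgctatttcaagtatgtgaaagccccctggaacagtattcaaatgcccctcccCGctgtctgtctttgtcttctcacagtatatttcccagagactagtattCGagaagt

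RIF1 peaks lay at the 5′ ends of most of the LPS-sensing genes. Of the 10 genes, 8 had a peak within 1 kb of a transcript 5′ end (80%), against 33.9% of all protein-coding genes. These were Tlr4, Ly96, Cd14, Cd180, Myd88, Irak4, Traf6 and Map3k7, and at each of them the peak contained the outermost 5′ end itself. The same 8 genes had a peak over the gene, against 35.8% of coding genes. Ly86 was the 1 gene under a wide domain, where the share of all coding genes was 22.6%. Tirap alone had neither a peak at a 5′ end nor a wide domain, the state of 43.8% of coding genes. Among genes outside wide domains, 8 of 9 had a peak at a 5′ end, against 43.4% of such coding genes.

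**Figure D1:**
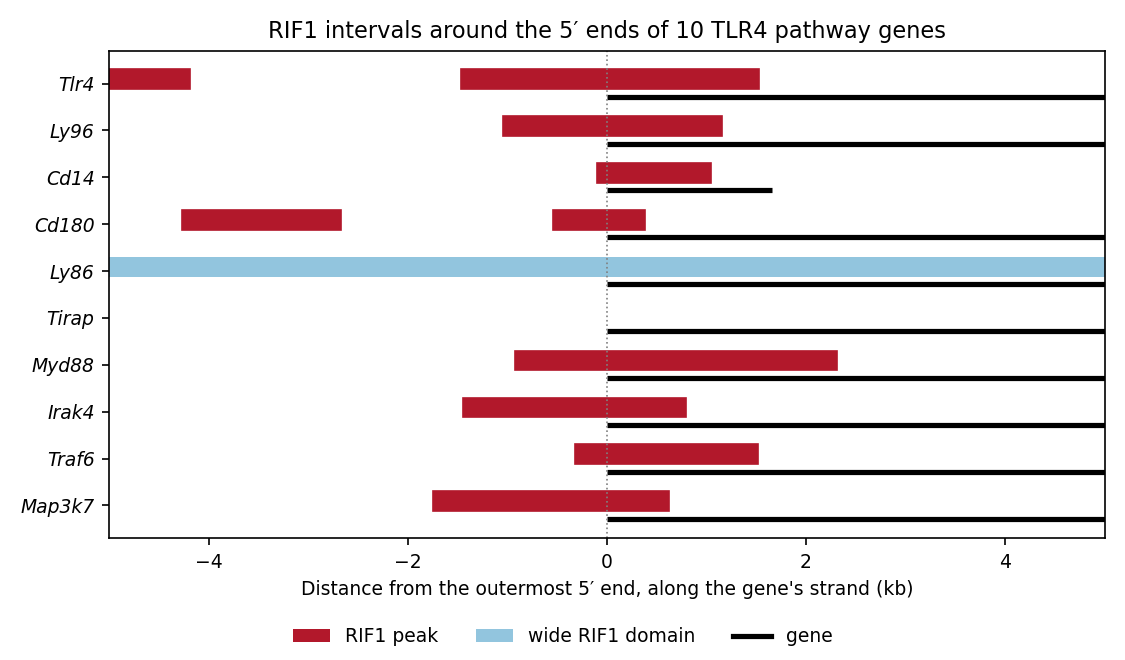
RIF1 intervals within 5 kb of the outermost 5′ end of each gene, on an axis of distance in kb along the strand of the gene, with peaks in red, wide domains in blue and the gene as a black line. At 8 genes a peak of 924 to 3231 bp spans the 5′ end, Ly86 lies inside a wide domain, and Tirap has no interval.

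The listed peaks at these 5′ ends were mostly wider than the median at coding genes. Their widths ran from 924 to 3231 bp with a median of 2224 bp, against 1556 bp for the 7384 peaks at coding 5′ ends, and 6 of 8 exceeded that median. Peaks at Myd88 and Tlr4 were the widest of the 8, and those at Cd180 and Cd14 the narrowest. The authors merged narrow and broad calls, so a listed width can join several calls. The part of the peak that lay before the outermost 5′ end ranged from 8.79% at Cd14 to 73.6% at Map3k7, with a median of 48.1%. More than 50% lay before it at 3 genes, Cd180, Irak4 and Map3k7.

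In the receptor complex, all 3 genes carried a peak over the 5′ end. Tlr4, the signalling receptor (ENSMUSG00000039005.7, chr4:66488618-66591318, plus strand, 103 kb), had a peak of 2996 bp at chr4:66487151-66490146. This peak was wider than 91.9% of those at coding 5′ ends and reached 1467 bp before and 1528 bp after the outermost 5′ end. All 4 annotated 5′ ends of Tlr4 lay inside it. A second peak of 2220 bp stood 6.41 to 4.19 kb before the gene, in DNA with no annotated gene.

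Past the peak at its 5′ end, Tlr4 stood at the edge of a long stretch with no listed peak. The next peak along the gene's strand began 3.58 Mb away, and 3.48 Mb past the 3′ end of Tlr4. This was the 63rd widest of 16023 gaps between neighbouring peaks, whose median was 37.1 kb. Gaps were measured between peaks alone, so some can hold wide domains, where peaks had been left out. The nearest wide domain to Tlr4 was 2841 kb away, and whether it lay in this gap is not given here.

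Ly96, the gene of the LPS-binding cofactor MD-2 (ENSMUSG00000025779.4, chr1:16678537-16699686, plus strand, 21.1 kb), had a peak of 2203 bp at chr1:16677495-16679697. It reached 1042 bp before and 1160 bp after the single annotated 5′ end. Another 5 peaks lay within 100 kb of the gene. Of these, 1 stood at the start of Tmem70, 23.3 kb before that of Ly96, 1 at the shared start of Tceb1 and a non-coding RNA, and 3 in intergenic DNA past the 3′ end, at 57.6, 69.7 and 121 kb from the 5′ end of Ly96.

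Cd14, which binds LPS and passes it on to the receptor (ENSMUSG00000051439.6, chr18:36884728-36886390, minus strand), is the shortest of the genes at 1.66 kb. Its peak of 1149 bp at chr18:36885343-36886491 lay almost wholly inside the gene, with 101 bp before the 5′ end and 1047 bp after it. The peak covered 712 bp of coding sequence, more than at any other of the 10 genes. The 3 other peaks within 100 kb of Cd14 were all at starts of other coding genes, those of Tmco6, Wdr55, and Apbb3 with Slc35a4.

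The related B cell pair was divided in the kind of interval listed. Cd180, the gene of RP105 (ENSMUSG00000021624.3, chr13:103483638-103529709, plus strand, 46.1 kb), had the narrowest peak of the 8, at 924 bp (chr13:103483100-103484023). It was wider than 17% of peaks at coding 5′ ends, and all 5 annotated 5′ ends of Cd180 lay in it. A row of 3 more peaks stood in the intergenic DNA before the gene. These spanned 4.27 to 2.67 kb (1601 bp), 8.52 to 7.82 kb (699 bp) and 30.2 to 25.3 kb (4883 bp) before the 5′ end. The farthest of them was wider than 99% of all 16043 peaks. On the other side no peak followed for 195 kb.

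Ly86, the gene of MD-1 (ENSMUSG00000021423.5, chr13:37437214-37510905, plus strand, 73.7 kb), lay wholly inside a wide domain of 580 kb (chr13:37400001-37980000). The width of that domain was near the median of 576 kb for all wide domains. The gene began 37.2 kb inside one edge and ended 469 kb before the other. Rreb1 was the other coding gene in the domain. No peak lay within 100 kb of Ly86, and the nearest was 329 kb from it, 292 kb below the domain. On the far side the first peak was 75.6 kb past the domain. The list thus gave a wide domain at Ly86 and single peaks at Cd180. Peaks inside wide domains had been left out, so Ly86 lacks a peak by construction. Whether RIF1 signal at the 2 genes differed cannot be told from the list.

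The adaptors were also divided. Tirap, which bridges TLR4 to MyD88 at the membrane (ENSMUSG00000032041.7, chr9:34994370-35007490, minus strand, 13.1 kb), had no peak over the gene or at either annotated 5′ end. The nearest peak stood 10.5 kb past its 3′ end and 23571 bp from its outermost 5′ end. That peak (chr9:34982793-34983918, 1126 bp) was at the start of Dcps. Srpr starts on the opposite strand 270 bp from Tirap and had no peak at its 5′ end either. In all, 5 peaks lay within 100 kb of Tirap, so the locus was not empty of them.

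Myd88, the adaptor shared by most Toll-like receptors (ENSMUSG00000032508.7, chr9:119245052-119250529, minus strand, 5.48 kb), had the widest peak of the 8 at 3231 bp (chr9:119248219-119251449). It was wider than 94% of peaks at coding 5′ ends. It reached 920 bp before and 2310 bp after the outermost 5′ end and held all 4 annotated 5′ ends, of which 3 lie 1370 to 1409 bp inside the gene. Acaa1a, a peroxisomal thiolase gene, starts on the opposite strand 117 bp inside Myd88, and the same peak covered its 5′ end. Which of these starts the peak belongs to cannot be told apart from the list.

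The enzymes below MyD88 each had a peak at the 5′ end. Irak4, the first kinase of the cascade (ENSMUSG00000059883.9, chr15:94374074-94412246, plus strand, 38.2 kb), had a peak of 2245 bp at chr15:94372626-94374870, reaching 1448 bp before and 796 bp after the 5′ end. Pus7l, a pseudouridine synthase gene, starts on the opposite strand 96 bp away under the same peak. As at Myd88, which of these starts the peak belongs to cannot be told apart from the list. Irak4 was the 1 gene of the 10 with a second peak inside the gene. This peak of 1339 bp (chr15:94395229-94396567) lay 21.2 to 22.5 kb past the 5′ end in intron 10 of the transcript with 12 exons, and touched no exon.

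Traf6, the ubiquitin ligase (ENSMUSG00000027164.8, chr2:101518586-101541826, plus strand, 23.2 kb), had a peak of 1837 bp at chr2:101518266-101520102, of which 320 bp lay before the 5′ end and 1516 bp after it. A non-coding transcript of Traf6 that starts 5786 bp inside the gene had no peak at its 5′ end. Of the 5 other peaks within 100 kb, 4 lay in Prr5l, the next gene along, and 1 lay over Rag2, a recombinase gene of lymphocytes, at the start of B230118H07Rik. Traf6 was the gene farthest from any wide domain, at 16394 kb.

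Map3k7, the gene of TAK1 (ENSMUSG00000028284.7, chr4:32051072-32110442, plus strand, 59.4 kb), had a peak of 2375 bp at chr4:32049324-32051698. It lay mostly before the gene, with 1748 bp before the 5′ end and 626 bp after it. The 4 coding transcripts all start within it, and the 5 non-coding transcripts that start 13251 to 28376 bp inside the gene had no peak at their 5′ ends. Of the genes outside wide domains Map3k7 was the closest to one, 89.6 kb from a domain of 506 kb (chr4:32200001-32706000).

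A typical gene of the 10 had more peaks in and around it than a typical coding gene, with peaks over the gene itself counted. Within the gene and 100 kb on each side, 9 of 10 had at least 1 peak, against 61.7% of coding genes. The median was 4 peaks a gene (0 to 6, 38 in all) against 2 for coding genes (quartiles 0 and 4). The median length of the 10 genes was 30.7 kb against 15.4 kb, and longer genes can meet more peaks. The median distance to the nearest peak was 0 kb for the 10 genes and 26.5 kb for coding genes. These counts and distances include peaks over the gene itself, which 8 of the 10 genes had, against 35.8% of coding genes. The surroundings alone were not compared. Of the 38 peaks, 8 were those at the 5′ ends of the 10 genes and 30 lay elsewhere. Of these 30, 13 were at a start of another coding gene, 5 in another gene away from its starts, 1 in the intron of Irak4 and 11 in intergenic DNA.

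**Figure D2:**
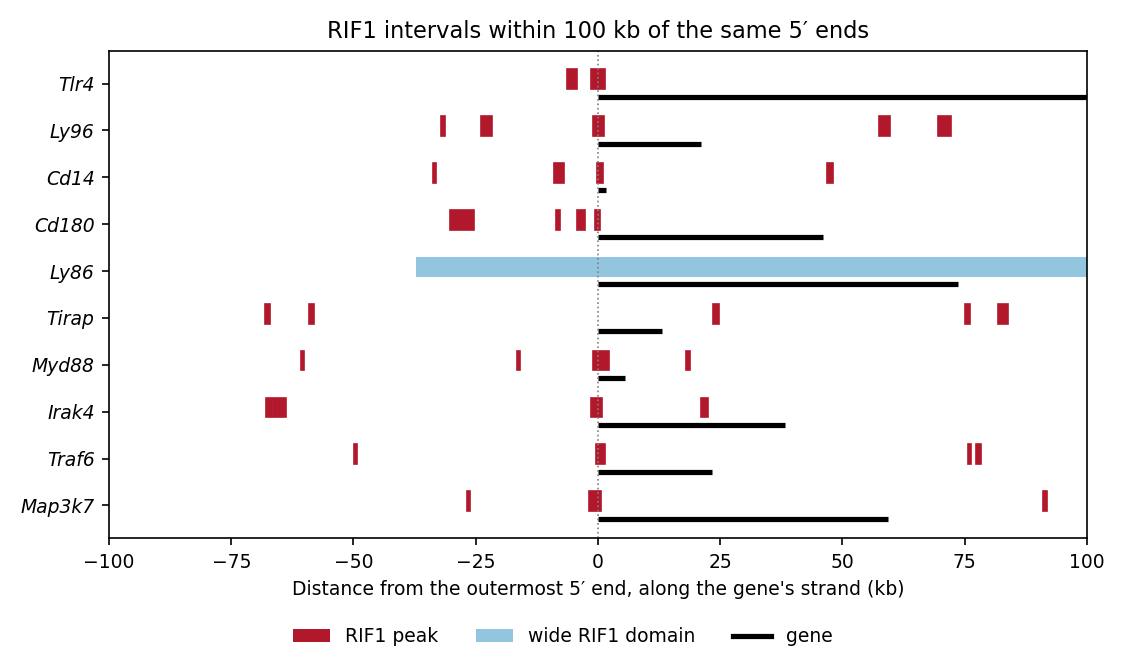
RIF1 intervals within 100 kb of the outermost 5′ end of each gene, on an axis of distance in kb along the strand of the gene, with peaks in red (outlined, which widens the thinnest of them), wide domains in blue and the gene as a black line. Peaks stand before Tlr4 and Cd180 and on both sides of most others, and the surroundings of Ly86 hold only the wide domain.

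Peaks were listed at the genes of low CpG content as well as of high. In windows of 300 bases (250 before and 50 after the outermost 5′ end), the ratio of observed to expected CpG was 0.24 at Tlr4, 0.36 at Ly96, 0.42 at Cd14, 0.35 at Cd180 and 0.57 at Irak4. These 5 windows were not CpG-rich, defined as a ratio of at least 0.6 with a GC content of at least 50%. All 5 genes had a peak at a 5′ end, against 18.5% of coding genes whose windows were not CpG-rich. The peak at Irak4 also covered the start of Pus7l. With a ratio of 0.5 as the limit, Irak4 became CpG-rich, and the remaining 4 of 4 stood against 15.9%.

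The other 5 windows were CpG-rich, with ratios of 0.69 at Ly86, 0.82 at Tirap, 0.87 at Myd88, 0.77 at Traf6 and 1.10 at Map3k7. Of these, 3 had a peak, against 55.2% of coding genes with CpG-rich windows, a share close to the background. Over all coding genes the share with a peak rose with the ratio, from 6.74% below 0.2 and 16.6% from 0.2 to 0.4 to 58% at 1.0 or above. Tlr4, Ly96 and Cd180 had peaks although their ratios lay from 0.2 to 0.4, whereas Tirap had none with a ratio of 0.82. Ly86 lies in a wide domain and has no peak by construction, so its ratio cannot be set against that absence. The share of 55.2% likewise includes genes under wide domains. Of the 3 genes with a coding start on the opposite strand within 1 kb (Tirap, Myd88 and Irak4), 2 had a peak, against 55.9% of all coding genes with such a partner.

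**Figure D3:**
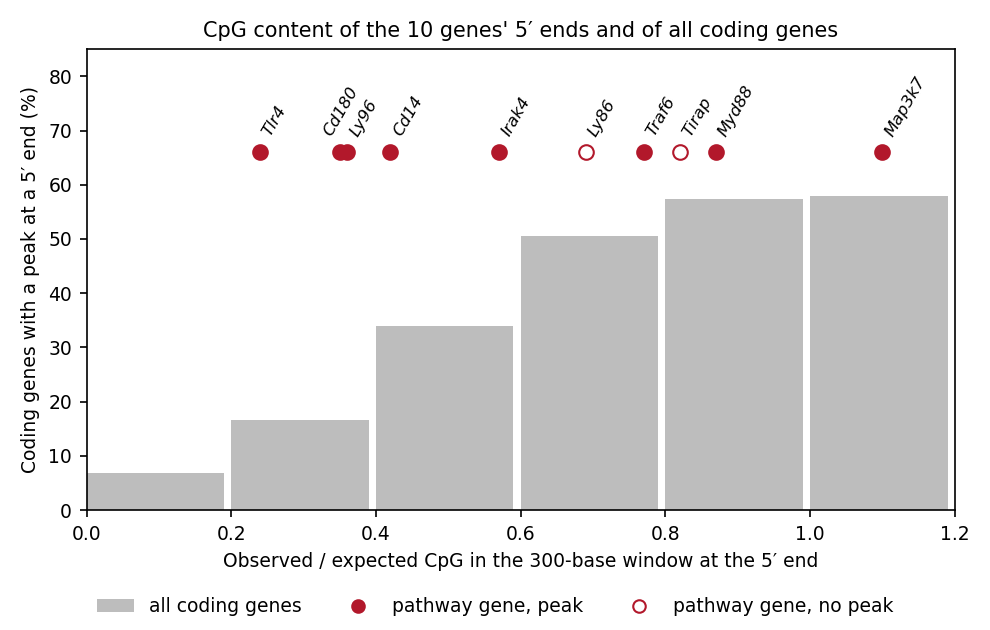
Share of all coding genes with a peak at a 5′ end (grey bars, in percent) by the ratio of observed to expected CpG in the 300-base window, the last bar holding all genes at 1.0 or above. Circles mark the ratio of each of the 10 genes (filled with a peak, open without), placed at 1 height that carries no value. Tlr4, Cd180 and Ly96 have peaks in a range where the share is 16.6%. The circle of Ly86 is open by construction, as the gene lies in a wide domain.

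Few short motifs were shared by these windows. The GC box GGGCGG, searched on both strands, was found at Tirap, Irak4, Traf6 and Map3k7 (4 of 10) and in 43.4% of the windows of all coding genes. The TATA box TATAAA (13.4% of all windows), the ETS motif CCGGAAGT (4.69%), the PU.1 motif GAGGAAGT (3.12%), the CRE motif TGACGTCA (2.32%) and the E box CACGTG (7.78%) were found at 0 of 10. The consensus for NF-kappaB, the factor that the pathway ends in, was found at Map3k7, 82 to 73 bases before the 5′ end, and in 4.74% of all windows. These are matches of letters and not sites of binding.

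Reads that align to several places were not used for the list, and repeated sequence was therefore measured at each 5′ end. Of the words of 31 bases within 1 kb of the outermost 5′ end, 0% occurred elsewhere in the genome at Ly86 and 0.406% at Tirap. At the 8 genes with a peak the share was 0.304 to 9.13%, lowest at Cd180 and highest at Myd88. Ly86 has no peak by construction, as it lies in a wide domain, and the part of repeated sequence in the absence of a peak at Tirap was not tested.

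Other genes of the pathway, together with genes of Toll-like receptors other than TLR4, were counted in the same way. Of 54 such genes, 23 had a peak at a 5′ end (42.6%), 19 lay under a wide domain and 12 had neither, where the shares of all coding genes were 33.9%, 22.6% and 43.8%. These lists are short, and none of their counts was tested against those shares. In a list of 8 MAP kinases and kinases that act above them, 7 had a peak at a 5′ end and 0 a wide domain. The first 6 of these by list order were Map3k8, Map2k3, Map2k6, Map2k7, Mapk8 and Mapk9. The other genes of the MyD88 arm, which hold the partners of IRAK4, TRAF6 and TAK1, had a peak at a 5′ end at 5 of 10, including Irak2, Tab3, Ube2n and Chuk, and a wide domain at 2, Tab1 and Ube2v1.

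Receptors and cofactors other than the 10 genes were counted next, beside shares of 33.9% of all coding genes with a peak at a 5′ end and 22.6% under a wide domain. Of 12 other Toll-like receptor genes, with the chaperone gene Unc93b1 among them, 3 had a peak at a 5′ end (25%), namely Tlr2, Tlr3 and Tlr5, whose ratios of observed to expected CpG were 0.26, 0.17 and 0.33. Another 5 lay under a wide domain, including Tlr1, Tlr6 and Tlr9. The 4 with neither had similarly low ratios, from 0.07 to 0.35, so low ratios stood at genes with and without a peak. Of 6 other cofactors and chaperones, 1 had a peak at a 5′ end, Cnpy3, which helps Toll-like receptors fold, and 3 lay under a wide domain, Hsp90b1, Cnpy4 and Itgb2.

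The TRIF arm, by which TLR4 signals from inside the cell to interferon genes, was counted beside the same shares of all coding genes, 33.9% with a peak at a 5′ end and 22.6% under a wide domain. A peak at a 5′ end was listed at 4 of 8 genes, including Ticam2 and Traf3, and the other 4 lay under wide domains, namely Ticam1, the gene of TRIF itself, Tbk1, Ikbke and Irf3. Of 10 brakes on the pathway, 3 had a peak at a 5′ end, including Tollip and Cyld, and 5 a wide domain, including Irak3, Tnfaip3, Sigirr and Socs1. As a description of genes of another blood lineage, 2 of 7 myeloid genes had a peak at a 5′ end (Mpeg1 and Cebpa) and 3 a wide domain (Itgam, Emr1 and Cd68).

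**Figure D4:**
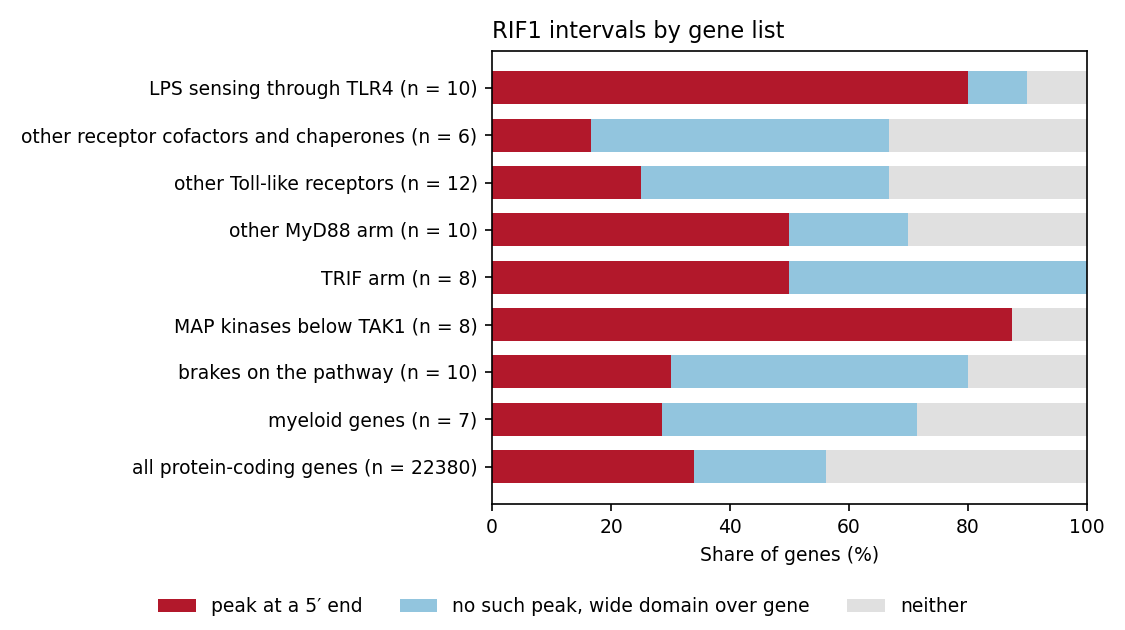
Share of genes in each list, in percent, with a peak at a 5′ end (red), with no such peak but a wide domain over the gene (blue), and with neither (grey). The LPS-sensing genes and the list labelled MAP kinases, which also holds kinases above them, have the longest red bars, at 80% and 87.5%. All protein-coding genes stand at 33.9%.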

How the data were processed

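RIF1 ChIP-seq used 2 Rif1FH and 2 Rif1WT samples. As the methods state, the authors trimmed reads, kept those with a unique alignment to mm9, called peaks per replicate and domains with EDD, merged them, kept what both Rif1FH replicates held, and left out peaks overlapping domains. The submitters' processing notes name Trim Galore 0.6.4, Bowtie 1.0.0, deepTools 3.3.0, MACS2 2.2.6 and bedtools 2.27.1. The deposited list holds chromosome, start and end, with no score.

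Intervals were divided at 50 kb and compared with GENCODE M1 genes (37310) at a minimum overlap of 1 bp, in coordinates counted from 1. Scripts (Python 3.11.15, numpy 2.4.6, numba 0.67.0, pysam 0.24.0, matplotlib 3.10.9, samtools 1.23.1) were tested on simulated intervals. All 10 genes were named, and from other lists up to 6 genes with a peak at a 5′ end or a wide domain, in list order. Counts over B lineage genes and the sequence of Cd14 are not reported here, and those before Myd88 and Irak4, which hold exons of neighbours, are not printed. The genes and lists were chosen with earlier results of these data known.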

Additional observations from a re-analysis of the deposited data

How the results depend on the processing

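The counts kept within 1.5 times their value, and the median distance at 0, under all 20 alternatives run on 6 results. This is a weak check, because the margin is loose for counts over so few genes. The median distance also stays at 0 as long as most of the genes overlap a peak. The number of genes with a peak at a 5′ end was 6 to 9, lowest when only peaks at or above the median width of 1365 bp counted (Cd14 and Cd180 then dropped out) and highest when wide domains counted too. With the midpoint of the peak required inside the gene, Cd180 and Map3k7 dropped out and 6 genes remained. Shares of all coding genes under these other settings are not given here, so the counts cannot be set against a background. Counting wide domains raises the background too, as only 43.8% of coding genes had neither a peak at a 5′ end nor a wide domain. The limit of 0.5 for CpG-rich windows was chosen after seeing the data. No paired analysis was possible because replicates were combined before the positions were listed, and for the same reason no replicate was left out. Depth, peak height and the level in Rif1WT cells were not analysed here.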
